A study of Homo sapiens with 24 samples.

Results

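The subunits of respiratory complex I were followed in poly(A)-selected RNA sequencing of 3 human cancer cell lines, each divided into total RNA of whole cells and cytoplasmic RNA. The members were taken by symbol from a fixed list of 43 subunit genes. Of these, 42 were found among the 51715 genes of the count tables. They were the 7 MT-ND genes of the mitochondrial genome and 35 NDUF genes of the nuclear genome. NDUFA7 was not matched to a row and was not analysed here. The cell lines were A-431, derived from an epidermoid carcinoma, U-2 OS, derived from an osteosarcoma, and U-251MG, derived from a glioblastoma. None was treated. Every cell line gave 4 total RNA libraries and as many from the cytoplasm (24 in all, numbered 1 to 24 in their titles). Each is an established line, grown by the study in 4 separate cultures, which are the replicates. The study's list gives total and cytoplasmic libraries of a line shared numbers, but the sources do not say that these stand for the same cultures.

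Complex I (NADH:ubiquinone oxidoreductase) is the entry point of electrons into the mitochondrial respiratory chain. It passes electrons from NADH through a flavin and a chain of iron-sulfur clusters to ubiquinone, and it couples this transfer to proton pumping across the inner membrane. Its core is built from both genomes: the MT-ND proteins form the proton-pumping membrane arm, and nuclear core subunits form the arm that reaches into the matrix. Accessory NDUF subunits, all nuclear, surround the core and are needed for assembly and stability. The MT-ND mRNAs are cut from long transcripts of the circular mitochondrial genome and never enter the nucleus, whereas the NDUF mRNAs are spliced in the nucleus and exported to the cytoplasm.

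Gene counts per library ranged from 19918911 to 32394170, and all 42 members passed the filter on low counts in every fraction comparison. Cytoplasmic library 13 of U-2 OS matched no entry in the study's list of sequenced libraries and was left out, which leaves 3 U-2 OS cytoplasmic libraries. The study removed 1 U-2 OS cytoplasmic sample for nuclear RNA, but the labels do not say which one. Flow cells and lanes were taken from the study's list by matching the read totals of the libraries. Library 14 matched in its reads outside genes and its reads aligned to several places, but not in its gene counts. By this match all total RNA libraries were sequenced on flow cell A. Of the cytoplasmic libraries only library 14 (U-2 OS) and libraries 19 and 20 (U-251MG) were, so in A-431 fraction and flow cell cannot be told apart. The fraction labels were checked against RNAs that are held in the nucleus, and MALAT1 and NEAT1 were higher in the libraries labelled cytoplasmic. The study's own electrophoresis check ran the way the labels say, with a peak of nuclear RNA in the total RNA samples and, apart from the removed one, not in the cytoplasmic samples. MALAT1 averaged 11.8 CPM (gene counts relative to the scaled total of the library) in total RNA and 32.3 CPM in cytoplasmic RNA of A-431, 29.6 and 52.6 CPM for U-2 OS, and 20.4 and 51.6 CPM for U-251MG. NEAT1 likewise averaged 215.9 CPM in total RNA and 698.9 CPM in cytoplasmic RNA of A-431. Its means were 478.2 and 699.4 CPM for U-2 OS, and 450.3 and 1135.9 CPM for U-251MG. MEG3 averaged at most 0.036 CPM in any group and KCNQ1OT1 was not matched to a row, so the check rests on MALAT1 and NEAT1 alone. The ratios below are therefore those of the libraries labelled total over the libraries labelled cytoplasmic. EGFR averaged 16078 CPM in total RNA of A-431, COL1A1 1229.8 CPM in U-2 OS and SOX2 119.5 CPM in U-251MG, whereas KRT14, a keratinocyte keratin, averaged only 0.105 CPM in A-431 and GFAP, an astrocyte marker, 2.62 CPM in U-251MG, and further markers were not highest in the line they were listed for. In total RNA KRT17, another keratin, averaged 108.3 CPM in A-431 and 458.9 CPM in U-2 OS. NES, a neural marker, averaged 49.3 CPM in U-251MG and 172.8 CPM in U-2 OS, and RUNX2, SPARC, CDH11 and COL5A2, listed for U-2 OS, were higher in U-251MG than in U-2 OS.

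The libraries were made by poly(A) selection, which bears on mitochondrial mRNAs. Several MT-ND genes stop before a full stop codon, which the poly(A) tail then completes, and these gene ends are shown because the tail serves both as the end of the reading frame and as the handle for selection; tails were not measured here. Each line gives the last bases of the coding sequence, 5′ to 3′ on the coding strand of chrM (GRCh37), with the encoded bases of the stop codon in capitals.
MT-ND1: tccagcattccccctcaaaccTA
MT-ND2: ccttttatactaataatcttaT
MT-ND3: aaaggattagactgaaccgaaT
MT-ND4: atcattaccgggttttcctctT
MT-ND5: ctaaccctactcctaatcacaTAA
MT-ND6: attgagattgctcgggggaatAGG
MT-ND1 ends at position 4262 with 2 of the stop bases, and MT-ND2, MT-ND3 and MT-ND4 end at positions 5511, 10404 and 12137 with 1 each. MT-ND5 and MT-ND6 encode all 3. MT-ND6 is the only member on the light strand, and its mRNA is known to lack a poly(A) tail, although reads were counted for it in every library.

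Members also adjoin or overlap one another, which bears on how their reads can be counted. MT-ND4L and MT-ND4 lie on 1 bicistronic mRNA, and their reading frames share 7 bases, shown in capitals within chrM:10750-10776.
MT-ND4L to MT-ND4: acctactccaATGCTAAaactaatcgt
MT-ND5 and MT-ND6 meet end to end on opposite strands, and the last bases of MT-ND5 stand in capitals within chrM:14137-14160.
MT-ND5 to MT-ND6: CTAATCACATAAcctattcccccg
The counting ignored strand. Reads counted for MT-ND6 therefore cannot be separated from RNA of the MT-ND5 strand that runs past the end of MT-ND5, and MT-ND6 values are given with that limit.

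Counted as CPM, the MT-ND sum was above the nuclear sum in every library. In total RNA the 7 MT-ND genes together averaged 12854 ± 3989 CPM in A-431, 14508 ± 2585 CPM for U-2 OS and 8366 ± 3444 CPM for U-251MG (SD, n = 4 each). The 35 nuclear members together averaged 1517 ± 36.8 CPM in A-431, 1532 ± 13.9 CPM for U-2 OS and 1906 ± 50.1 CPM for U-251MG (SD, n = 4 each). The 2 sums thus ordered the lines differently: U-251MG had the lowest MT-ND mean and the highest nuclear sum. The ratio of the MT-ND sum to the nuclear sum in total RNA was 8.52 in A-431, 9.48 for U-2 OS and 4.39 for U-251MG. By the deposited RPKM, a value per kilobase whose ratio to counts differs widely between genes, the MT-ND sum averaged 11282 beside a nuclear sum of 10398 in total RNA of A-431, 12234 beside 10856 for U-2 OS, and 7168 beside 13097 for U-251MG. By RPKM the nuclear sum was the higher one in every U-251MG library of both fractions and in libraries 1, 10, 12 and 24. Replicates of the MT-ND sum in CPM were far more scattered than those of the nuclear sum, with single libraries between 5876 and 13426 CPM in U-251MG total RNA. Between the fractions, the nuclear sum averaged 1517 ± 36.8 CPM in total RNA and 1630 ± 28.8 CPM in cytoplasmic RNA of A-431 (SD, n = 4 each), without overlap. Total RNA libraries of U-2 OS held 1532 ± 13.9 CPM and the cytoplasmic ones 1584 ± 47.3 CPM (SD, n = 4 and 3), with overlap. Total RNA libraries of U-251MG held 1906 ± 50.1 CPM and the cytoplasmic ones 2061 ± 107.99 CPM (SD, n = 4 each), and the highest total and the lowest cytoplasmic library met at 1961 CPM. The highest MT-ND sums of A-431 and U-251MG total RNA, 18762 and 13426 CPM, belonged to libraries 11 and 5, which were both sequenced in lane 5 of flow cell A. The part of the lane in these values was not tested.

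**Figure D1:**
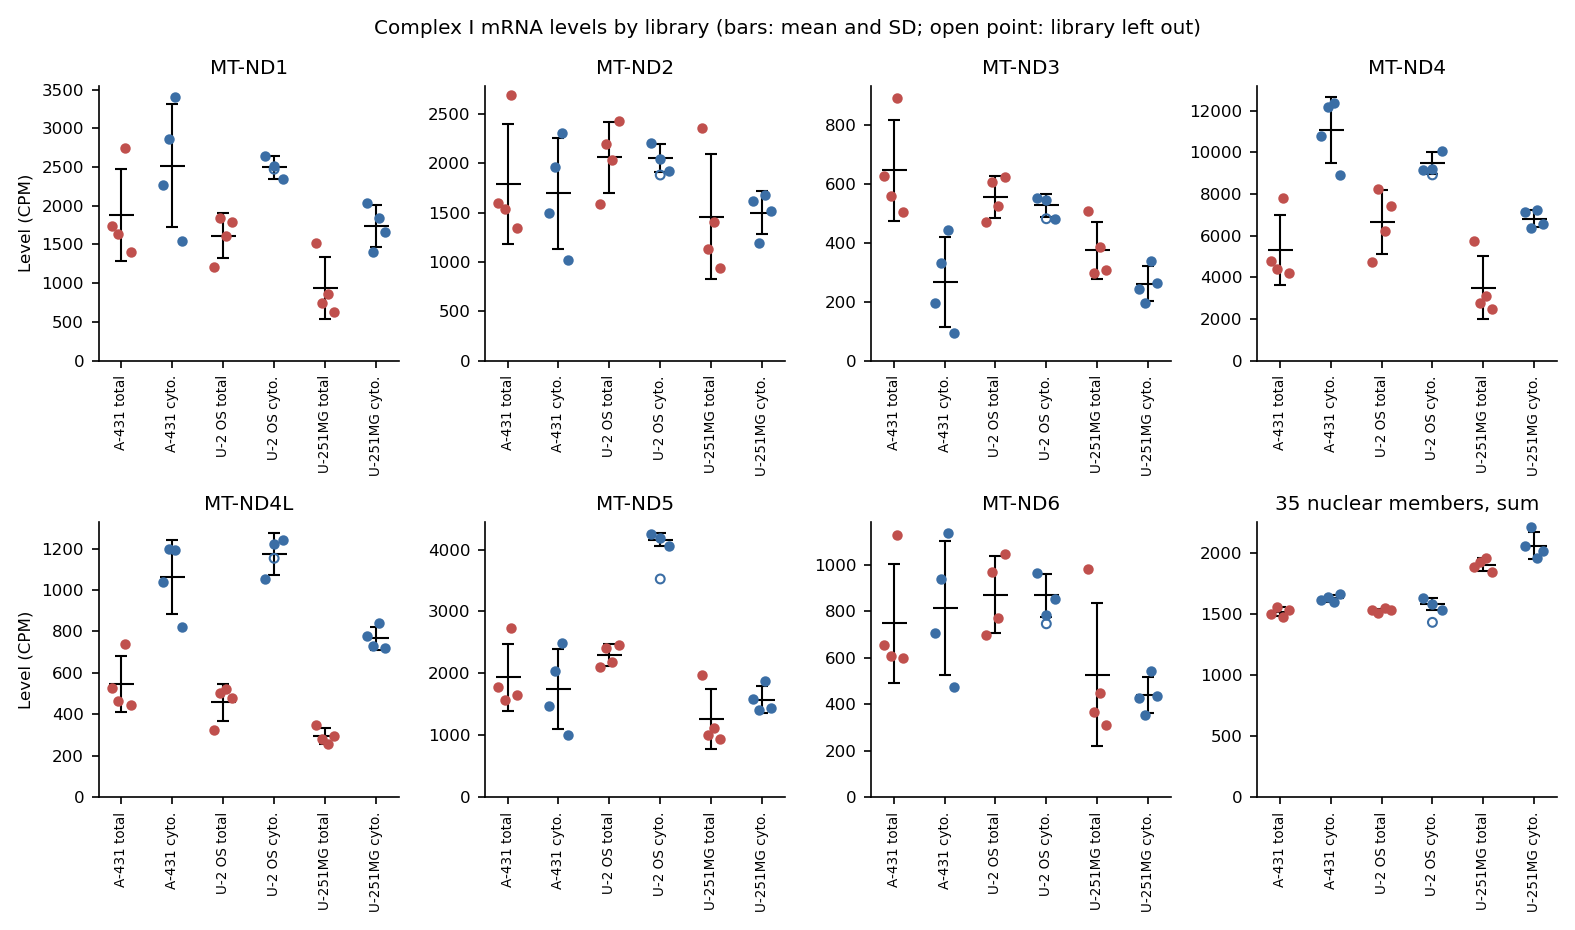
Level of each MT-ND gene and the sum of the 35 nuclear members by library (CPM, vertical axis) in each fraction of the 3 lines. Points are libraries, bars give the mean and SD, and the open point is U-2 OS cytoplasmic library 13, which was left out. MT-ND4L lies lower in every total RNA library than in the cytoplasmic libraries of the same line, between 257.0 and 739.9 CPM in total RNA.

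Per kilobase of transcript, the only scale on which genes are compared here, the MT-ND genes had a median level in total RNA of 1834 CPM per kb in A-431, 1660 CPM per kb for U-2 OS and 1003 CPM per kb for U-251MG. The nuclear members had medians of 43.5, 38.3 and 50.1 CPM per kb in the same lines. MT-ND4, a proton-pumping subunit at the far part of the membrane arm, was the highest MT-ND gene in each line, at 3854, 4831 and 2549 CPM per kb in A-431, then U-2 OS, then U-251MG. MT-ND5, the outermost pumping subunit, was the lowest, at 1067, 1264 and 695.2 CPM per kb. The highest nuclear member, NDUFS5 of the proximal membrane arm, stood at 169.9, 207.9 and 308.9 CPM per kb, below the lowest MT-ND gene in each line. NDUFV3, an accessory subunit of the NADH-binding module, was the lowest nuclear member, at 3.66, 2.74 and 3.91 CPM per kb. By the deposited RPKM values NDUFS5 was also the highest nuclear member, with a mean of 1036, and NDUFA5 the lowest, with a mean of 54.5. The median ratio of RPKM to counts per kilobase was 2.77 for MT-ND5, 0.41 for MT-ND4 and MT-ND2, and 4.42 for NDUFS5. The order of the MT-ND genes, and their place above NDUFS5, are therefore those of the counts and need not hold by RPKM. These values rest on 1 annotated transcript for each gene, and short members gain when the read length of 100 bases is allowed for. The nuclear medians were then 55.03, 43.1 and 59.1 CPM per kb, and the MT-ND medians 2192.3, 2186.5 and 1490.6 CPM per kb.

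**Figure D2:**
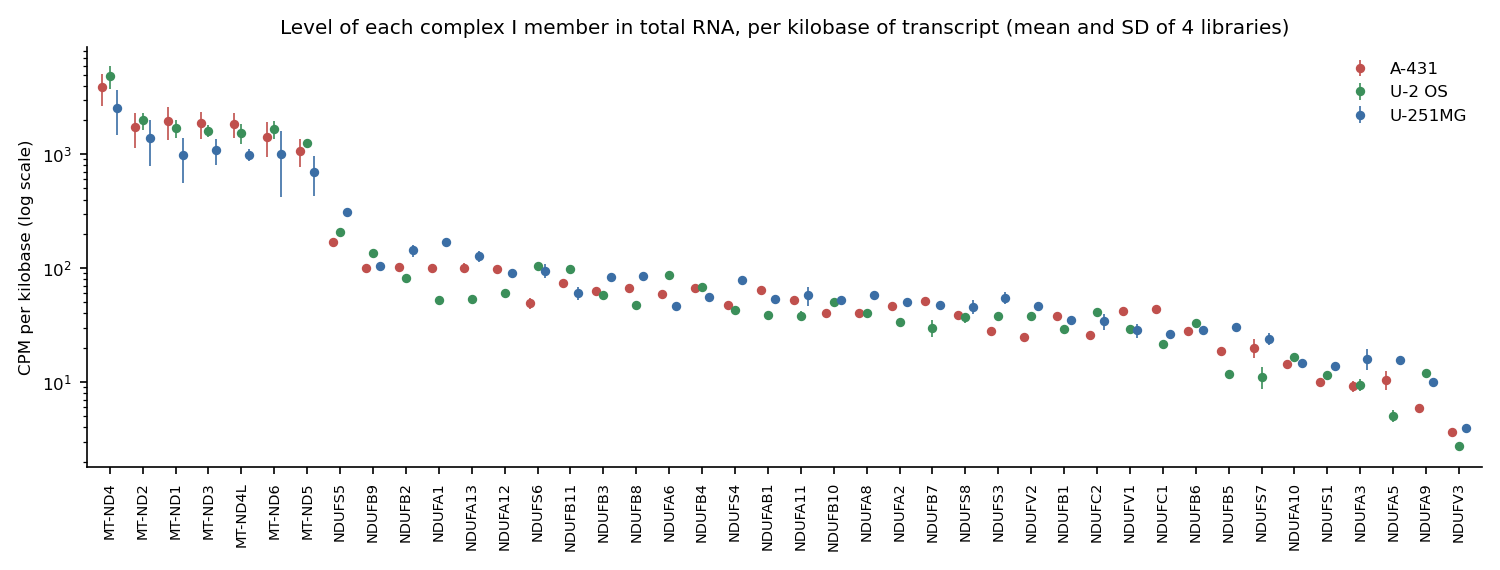
Level of each complex I member in total RNA of A-431, then U-2 OS, then U-251MG (vertical axis, CPM per kilobase of transcript, log scale), with points for means and bars for the SD of 4 libraries. On this scale of counts every MT-ND gene lies above every nuclear member of the same line, the nearest being NDUFS5 at 308.9 CPM per kb in U-251MG.

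The first question was whether total and cytoplasmic RNA differ for these transcripts. Among the MT-ND genes, MT-ND4L was lower in total RNA of U-251MG and MT-ND5 was lower in total RNA of U-2 OS at an adjusted p under 0.001, and no MT-ND gene was called in A-431 or called higher in any line (edgeR's quasi-likelihood test, Benjamini-Hochberg adjustment over all genes tested). In the order A-431, then U-2 OS, then U-251MG, 19.7, 8.36 and 12.9% of all genes tested were called in either direction, so 0, 1 and 1 of 7 MT-ND genes are near that background. At an unadjusted p under 0.05 the counts were 1 higher and 2 lower in A-431, 0 higher and 3 lower in U-2 OS, and 0 higher and 3 lower in U-251MG. Of all genes, 9287 of 16376, 7115 of 18049 and 8967 of 16128 were under 0.05 in these lines. The MT-ND counts in either direction are near or below that background. Among all genes 4700, 3445 and 4565 were under 0.05 and lower. The lower MT-ND counts alone are near that share in A-431 and above it in U-2 OS and U-251MG, with only 7 genes and no test made. The median log2 ratio of total over cytoplasmic RNA over the 7 genes was -0.11 in A-431, -0.51 for U-2 OS and -0.34 for U-251MG, beside medians within 0.011 of 0 over all genes. DESeq2 called 2, 3 and 1 MT-ND genes lower and none higher.

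MT-ND4L, the smallest of the pumping-arm subunits, lay lower in total RNA in every line. In A-431 it measured 527.1, 465.2, 739.9 and 446.2 CPM in total RNA, against 1039, 1199, 1195 and 820.0 CPM in cytoplasmic RNA. In U-2 OS it measured 324.2, 503.5, 524.0 and 478.2 CPM in total RNA, against 1055, 1223 and 1240.4 CPM in cytoplasmic RNA. In U-251MG it measured 346.6, 281.2, 257.0 and 295.8 CPM in total RNA, against 778.9, 731.2, 838.9 and 719.7 CPM in cytoplasmic RNA. No total RNA library reached any cytoplasmic library of its line, and U-2 OS cytoplasmic library 13, at 1154 CPM, lay with the other cytoplasmic libraries. MT-ND4L fell in total RNA of U-251MG with a log2 ratio of -1.40 (SE 0.0919, edgeR adjusted p = 6.731e-06), and of -1.42 with flow cell A libraries alone (edgeR adjusted p = 0.0001595). The log2 ratios were -1.35 in U-2 OS (SE 0.189, edgeR adjusted p = 0.004867) and -0.95 in A-431 (SE 0.197, edgeR adjusted p = 0.005744), which miss the threshold of 0.001.

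MT-ND4, its partner on the bicistronic mRNA, lay the same way round. It measured 4794, 4394, 7828 and 4224 CPM in total RNA of A-431, against 10801, 12190, 12363 and 8918 CPM in cytoplasmic RNA. It measured 5730, 2767, 3094 and 2459 CPM in total RNA of U-251MG, against 7128, 6369, 7241 and 6558 CPM in cytoplasmic RNA. Both lines kept the fractions apart without overlap, although library 11 of A-431 and library 5 of U-251MG stood well above the other total RNA libraries. In U-2 OS the gap was small, with total RNA reaching 8241 CPM and the lowest cytoplasmic library at 9160 CPM. The log2 ratio of MT-ND4 stood at -1.04 in A-431 (SE 0.228, edgeR adjusted p = 0.007939), -0.50 for U-2 OS (SE 0.206, edgeR adjusted p = 0.1378) and -0.97 for U-251MG (SE 0.271, edgeR adjusted p = 0.02034), none past the threshold. Without library 11, MT-ND4 and MT-ND4L passed in A-431, at -1.29 (edgeR adjusted p = 7.345e-08) and -1.13 (edgeR adjusted p = 2.466e-05). Without library 5, MT-ND4 passed in U-251MG at -1.32 (edgeR adjusted p = 0.0001005), and MT-ND1 did so at -1.24 (edgeR adjusted p = 0.0003675). Without library 1 of U-2 OS, MT-ND4L passed in that line at -1.22 (edgeR adjusted p = 4.327e-17) and MT-ND1 at -0.51 (edgeR adjusted p = 2.522e-07). Most fits that left out 1 library gave no such pass. MT-ND4L and MT-ND1 of U-2 OS stayed uncalled in 6 of 7 of them. For A-431, 7 of 8 left MT-ND4 uncalled, and as many did so for MT-ND4L. The same count, 7 of 8, held for MT-ND4 and for MT-ND1 of U-251MG.

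MT-ND5 was called in U-2 OS. In U-2 OS it measured 2103, 2414, 2182 and 2464 CPM in total RNA, against 4253, 4180.4 and 4051 CPM in cytoplasmic RNA. These libraries were tightly grouped and far apart by fraction, and MT-ND5 fell in total RNA by 0.86 on the log2 scale (SE 0.0579, edgeR adjusted p = 1.906e-13). With the flow cell A libraries alone, where the single cytoplasmic library is assumed to vary like the others, the ratio was -0.91 (edgeR adjusted p = 1.988e-09). In A-431 it measured 1778, 1574, 2732 and 1652 CPM in total RNA, against 1477, 2030.5, 2484 and 1002 CPM in cytoplasmic RNA. There the fractions overlapped, with a log2 ratio of 0.16 (SE 0.331, edgeR adjusted p = 0.7171). The U-251MG fractions also overlapped, at -0.34 (SE 0.255, edgeR adjusted p = 0.3086).

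MT-ND3, a small subunit near the ubiquinone site, was the only MT-ND gene whose A-431 libraries were all higher in total RNA. It measured 627.8, 560.8, 893.6 and 503.6 CPM in total RNA, against 197.4, 332.9, 442.7 and 94.4 CPM in cytoplasmic RNA. The cytoplasmic libraries were widely spread, and the log2 ratio of 1.29 did not pass (SE 0.492, edgeR adjusted p = 0.07012). Its ratio was 0.09 for U-2 OS and 0.51 for U-251MG, also not called. MT-ND1, which helps to form the ubiquinone site, had log2 ratios of -0.41 in A-431, -0.63 for U-2 OS and -0.90 for U-251MG (edgeR adjusted p = 0.3286, 0.0432 and 0.04071). MT-ND2, the pumping subunit nearest to the ubiquinone site, stayed between -0.06 and 0.09, and MT-ND6 between -0.11 and 0.25, with edgeR adjusted p of at least 0.6405 for both genes. Counted by non-overlap of the libraries, 1 MT-ND gene was higher and 2 were lower in total RNA of A-431, 4 were lower in U-2 OS and 2 were lower in U-251MG, where 22.3 and 23.1, 15.7, and 21.3% of all genes tested did the same.

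The other mitochondrial transcripts gave a wider frame. The 6 remaining mitochondrial mRNAs (cytochrome c oxidase, cytochrome b and ATP synthase subunits) together averaged 14359 CPM in total RNA and 31132 CPM in cytoplasmic RNA of A-431, 23632 and 33821 CPM for U-2 OS, and 12374 and 24048 CPM for U-251MG, without overlap of the libraries in any line. Of these 6, MT-CO1, MT-CO3 and MT-CYB were called lower in total RNA of A-431, and none was called in the other lines. The MT-ND sum overlapped between the fractions in A-431 (10172 to 18762 CPM in total RNA, 13880 to 23338 CPM in cytoplasmic RNA) and in U-251MG. It did not in U-2 OS, where it averaged 14508 ± 2585 CPM in total RNA (SD, n = 4) and 20777 ± 240.3 CPM in cytoplasmic RNA (SD, n = 3). In such bulk libraries, less of a transcript per cell and fewer cells that carry it cannot be told apart.

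The make-up of the MT-ND pool also differed between the fractions, for 4 of its genes the same way in every line. Shares are given as a percentage of the MT-ND counts of a library and carry no test, since they are parts of 1 sum. MT-ND2 made up 13.9% of the pool in total RNA and 8.67% in cytoplasmic RNA of A-431, 14.2 and 9.91% for U-2 OS, and 17.3 and 11.4% for U-251MG. MT-ND3 made up 5.07 and 1.31%, 3.87 and 2.54%, and 4.66 and 1.98% in the same order. MT-ND6 had a higher share in total RNA as well, at 5.78 and 4.15%, 6.01 and 4.18%, and 6.02 and 3.34%. MT-ND4L had the lower share in total RNA, at 4.29 and 5.59%, 3.16 and 5.65%, and 3.82 and 5.87%. For each of these 4 genes the libraries of the fractions did not overlap in any line. MT-ND5 made up 15.1 and 8.88% in A-431, 16.04 and 20.03% for U-2 OS, and 15.2 and 12.01% for U-251MG, so U-2 OS was the line in which its share was lower in total RNA. MT-ND4 was the largest part of the pool. It made up 41.2 and 58.5% in A-431, 45.6 and 45.7% for U-2 OS, and 41.8 and 52.2% for U-251MG, with overlap in U-2 OS. MT-ND1 made up 14.6 and 12.9%, 11.1 and 12.02%, and 11.2 and 13.2% in the same order. Its direction thus differed between lines, and its libraries overlapped in A-431 and U-2 OS.

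The libraries that shared a flow cell kept the order of the fractions in the MT-ND2 share. MT-ND2 made up 10.6% of the pool in U-2 OS cytoplasmic library 14, below the 13.1% of the lowest U-2 OS total RNA library, and 11.7 and 12.04% in U-251MG cytoplasmic libraries 19 and 20, below 15.99%. MT-ND4 counts were 2.98 times MT-ND2 counts in total RNA and 6.88 times in cytoplasmic RNA of A-431, 3.21 and 4.64 times for U-2 OS, and 2.42 and 4.59 times for U-251MG. Libraries 5 and 11, with the highest MT-ND sums of their groups, did not stand out in this ratio, at 2.42 and 2.91. U-2 OS cytoplasmic library 13 had a ratio of 4.74, within the range of the other cytoplasmic libraries of that line.

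**Figure D3:**
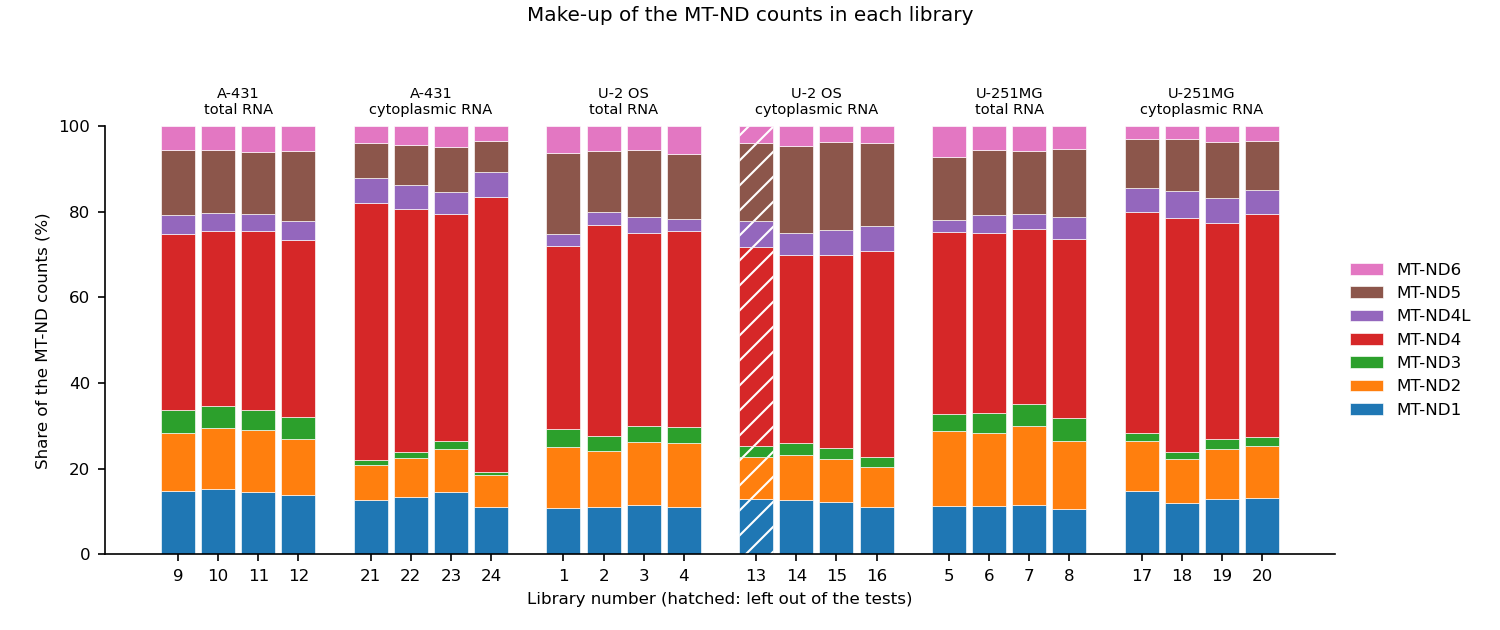
Share of each MT-ND gene in the MT-ND counts of every library (vertical axis, %), grouped by cell line and fraction along the horizontal axis, with library numbers below. The hatched library, number 13, was left out of the tests. The MT-ND2 and MT-ND3 bands are wider in every total RNA library than in the cytoplasmic libraries of the same line.

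The nuclear members differed little between the fractions, and those called were mostly lower in total RNA. In A-431, 1 of the 35 was called higher and 5 lower in total RNA, beside 10.2 and 9.51% of all genes tested. In U-2 OS the counts were 1 higher and 5 lower, beside 4.75 and 3.61%, and in U-251MG they were 1 higher and 4 lower, beside 5.93 and 6.98%. The median log2 ratio over the 35 was -0.13 in A-431, -0.01 for U-2 OS and -0.24 for U-251MG. Libraries did not overlap for 3 members that were higher and 15 that were lower in total RNA of A-431, 5 and 10 for U-2 OS, and 4 and 15 for U-251MG. Of all genes tested, 22.3% were higher and 23.1% lower without overlap in A-431, 17.4 and 15.7% for U-2 OS, and 22.7 and 21.3% for U-251MG, which makes 45.4, 33.1 and 43.9% in either direction. Over both genomes 13 members were called in at least 1 line, and 29 in none, of which 24 were nuclear. The same count was not made over all genes, of which 19.7, 8.36 and 12.9% were called in the single lines.

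NDUFS8 and NDUFB7 were the 2 members called in all 3 lines, each time lower in total RNA. NDUFS8 is a core subunit that holds iron-sulfur clusters at the end of the electron path. It measured 28.1, 31.6, 25.1 and 29.04 CPM in total RNA of A-431, against 44.3, 40.6, 39.5 and 49.5 CPM in cytoplasmic RNA. In U-2 OS it measured 27.6, 26.2, 30.8 and 24.2 CPM in total RNA, against 40.9, 41.2 and 34.95 CPM in cytoplasmic RNA. In U-251MG it measured 31.95, 38.2, 36.6 and 28.1 CPM in total RNA, against 49.7, 65.7, 53.5 and 55.2 CPM in cytoplasmic RNA. The fractions were apart in each line. NDUFS8 fell in total RNA by 0.60 on the log2 scale in A-431 (SE 0.0817, edgeR adjusted p = 2.358e-05), by 0.51 for U-2 OS (SE 0.0743, edgeR adjusted p = 4.883e-06) and by 0.75 for U-251MG (SE 0.111, edgeR adjusted p = 0.0002839). In U-251MG the call was lost without library 5, 18 or 20, at edgeR adjusted p of up to 0.001377. With flow cell A libraries alone NDUFS8 stayed called in U-2 OS, at -0.60 (edgeR adjusted p = 0.000358), and missed the threshold in U-251MG, at -0.71 (edgeR adjusted p = 0.002181).

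NDUFB7, an accessory subunit of the distal membrane arm, was near it in size. It measured 27.6, 28.1, 24.4 and 29.1 CPM in total RNA of A-431, against 40.0, 38.0, 37.1 and 49.5 CPM in cytoplasmic RNA. In U-2 OS it measured 16.3, 13.2, 19.7 and 14.9 CPM in total RNA, against 26.7, 23.8 and 21.7 CPM in cytoplasmic RNA. In U-251MG it measured 24.7, 27.1, 27.6 and 23.01 CPM in total RNA, against 42.1, 47.1, 35.2 and 37.3 CPM in cytoplasmic RNA. Here too no library of one fraction entered the range of the other. NDUFB7 fell in total RNA by 0.58 on the log2 scale in A-431 (SE 0.0871, edgeR adjusted p = 5.408e-05), by 0.58 for U-2 OS (SE 0.104, edgeR adjusted p = 0.0003419) and by 0.68 for U-251MG (SE 0.101, edgeR adjusted p = 0.0002884). The call was lost without library 4, 14 or 15 in U-2 OS and without library 5, 6 or 18 in U-251MG. With flow cell A libraries alone the ratios were -0.75 for U-2 OS (edgeR adjusted p = 0.001846) and -0.52 for U-251MG (edgeR adjusted p = 0.004196).

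The other nuclear calls belonged to 1 or 2 lines. NDUFS7, the core subunit next to NDUFS8 on the electron path, fell in total RNA by 0.52 on the log2 scale in A-431 (SE 0.102, edgeR adjusted p = 0.0004691) and by 0.68 in U-251MG (SE 0.125, edgeR adjusted p = 0.0009477). Its call was lost without any 1 of 6 of the 8 A-431 libraries and without any single U-251MG library. NDUFA11, a proximal arm subunit, fell by 0.56 in A-431 (SE 0.0719, edgeR adjusted p = 1.333e-05) and by 0.75 in U-251MG (SE 0.131, edgeR adjusted p = 0.000802), where leaving out any of 5 of the 8 libraries ended the call. Called lower only in A-431 was NDUFB2 of the distal arm, at -0.30 (SE 0.0543, edgeR adjusted p = 0.0002645), a call kept in 4 of 8 fits that left out 1 library. In U-2 OS the further calls were NDUFA13, a proximal arm subunit also known as GRIM-19, at -0.40 (SE 0.0696, edgeR adjusted p = 3.687e-05), NDUFS3, a core subunit of the quinone module, at -0.36 (SE 0.0637, edgeR adjusted p = 4.73e-05), and NDUFB9 of the distal arm at -0.30 (SE 0.0532, edgeR adjusted p = 5.298e-05). All 3 lost the call without library 14. With flow cell A libraries alone, none of the further U-2 OS and U-251MG calls passed, at edgeR adjusted p of 0.001596 or more, and none changed direction. A call in 1 line and not in another does not show that the lines differ, and the test of that difference is given further on.

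A different member was called higher in total RNA in each line. NDUFS1, the largest core subunit, measured 111.3, 117.1, 119.0 and 120.4 CPM in total RNA of A-431, against 99.8, 100.5, 99.4 and 94.6 CPM in cytoplasmic RNA, and rose by a log2 ratio of 0.26 (SE 0.0499, edgeR adjusted p = 0.000422). NDUFC2 of the proximal arm measured 90.4, 91.6, 81.5 and 91.0 CPM in total RNA of U-2 OS, against 74.8, 68.0 and 64.2 CPM in cytoplasmic RNA, and rose by 0.37 (SE 0.0590, edgeR adjusted p = 1.601e-05). NDUFA5 of the quinone module measured 78.5, 84.5, 83.4 and 96.5 CPM in total RNA of U-251MG, against 51.6, 49.4, 66.1 and 58.7 CPM in cytoplasmic RNA, and rose by 0.58 (SE 0.0921, edgeR adjusted p = 0.000376). The libraries did not overlap in any of the 3. The calls of NDUFS1 and NDUFA5 were each lost on leaving out any of 5 of the 8 libraries of their line.

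The fraction ratio of the nuclear members followed the base composition of their transcripts. GC content was taken from 1 annotated transcript per gene. NDUFS7 (66.9%), NDUFB7 (64.9%), NDUFS8 (63.5%), NDUFA11 (62.3%) and NDUFA13 (61.6%) are GC-rich, and NDUFA5 (34.6%), NDUFS1 (41.8%) and NDUFC2 (44.05%) are not. NDUFB2 (54.2%), NDUFS3 (53.7%) and NDUFB9 (52.97%), also called lower in total RNA, lie between these. Over the 35 nuclear members, Pearson's r between GC content and the log2 ratio was -0.86 in A-431, -0.78 for U-2 OS and -0.89 for U-251MG, with Spearman's rho of -0.84, -0.73 and -0.88. For transcript length, r was 0.44, 0.43 and 0.49. These describe 35 genes measured in the same libraries, which are not independent replicates. The 10 members with at least 55% GC had median ratios of -0.38, -0.28 and -0.54 in A-431, then U-2 OS, then U-251MG, with 10, 9 and 10 of them below 0. The 12 members under 45% GC had medians of 0.09, 0.07 and 0.12, with 3 below 0 in each line.

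The relation was also seen beyond complex I. Over all genes tested with a GC value, r was -0.59 in A-431, -0.48 for U-2 OS and -0.70 for U-251MG. The medians were -0.30, -0.19 and -0.42 for genes with at least 55% GC, and 0.23, 0.14 and 0.28 for genes under 45% GC. The bounds of 55 and 45% were chosen after the values were seen. With flow cell A libraries alone, r over the nuclear members was -0.81 for U-2 OS and -0.83 for U-251MG. The part of GC content in the fraction calls was not tested. The MT-ND genes, at 40.2 to 47.7% GC, were not part of this relation and spread from -1.40 to 1.29.

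**Figure D4:**
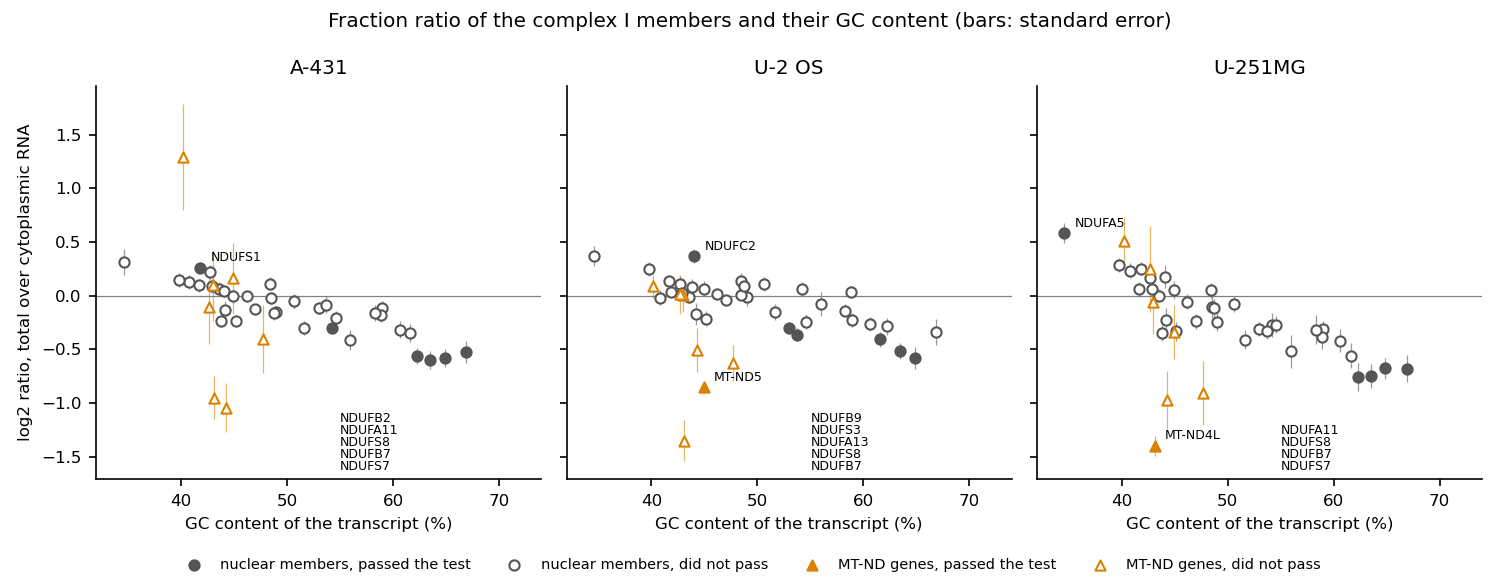
Log2 ratio of total over cytoplasmic RNA (vertical axis) against the GC content of the transcript (horizontal axis, %) for the 42 members in A-431, then U-2 OS, then U-251MG, with standard errors as bars and members past an adjusted p of 0.001 filled; the list at the lower right names the filled nuclear members below 0 in order of rising GC content. Nuclear members slope downwards with r = -0.86, -0.78 and -0.89, and the MT-ND genes scatter widely at 40.2 to 47.7% GC.

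The lines were then compared within total RNA, whose libraries shared a flow cell. The 3 comparisons share libraries, so their values are given side by side. Of the 35 nuclear members, 16 were called higher and 9 lower in A-431 than in U-2 OS, where 30.8 and 34.8% of all genes tested were called (edgeR adjusted p under 0.001). In A-431 over U-251MG 5 were higher and 17 lower, beside 29.3 and 28.5% of all genes, and in U-251MG over U-2 OS 20 were higher and 5 lower, beside 28.3 and 34.2%. The median log2 ratios over the 35 were 0.12, -0.32 and 0.50, and those over all genes were -0.07, 0 and -0.09. U-251MG had the highest mean for 20 nuclear members, U-2 OS for 9 and A-431 for 6. U-2 OS had the lowest mean for 18, A-431 for 13 and U-251MG for 4.

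No MT-ND gene was called between lines in total RNA. The median log2 ratio over the 7 genes was -0.18 for A-431 over U-2 OS, 0.65 for A-431 over U-251MG and -0.73 for U-251MG over U-2 OS. At an unadjusted p under 0.05 the counts were 0, 4 higher and 5 lower, and DESeq2 called 0, 1 higher and 0. Of all 18610 genes, 14944, 13846 and 14599 were under 0.05, a larger share than of the MT-ND genes. MT-ND4L was nearest to the threshold in A-431 over U-251MG, at 0.91 (SE 0.201, edgeR adjusted p = 0.002018). MT-ND5 was nearest in U-251MG over U-2 OS, at -0.87 (SE 0.265, edgeR adjusted p = 0.0129). Without the lane 5 libraries 5 and 11, a choice made after the data were seen, MT-ND5 passed in all 3 comparisons, at -0.46 for A-431 over U-2 OS (edgeR adjusted p = 8.829e-06), 0.71 for A-431 over U-251MG (edgeR adjusted p = 5.106e-08) and -1.17 for U-251MG over U-2 OS (edgeR adjusted p = 5.939e-12).

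In cytoplasmic RNA, where replicates of MT-ND4 and MT-ND4L were closer together, both passed in the comparisons with U-251MG. MT-ND4 was higher in A-431 than in U-251MG at a log2 ratio of 0.69 (SE 0.0799, edgeR adjusted p = 1.404e-07) and lower in U-251MG than in U-2 OS at -0.45 (SE 0.0855, edgeR adjusted p = 8.481e-05). MT-ND4L had 0.46 (SE 0.0948, edgeR adjusted p = 0.0002976) and -0.58 (SE 0.102, edgeR adjusted p = 5.64e-05). Neither was called between A-431 and U-2 OS. MT-ND5 had larger ratios that missed the threshold. They were -1.37 for U-251MG over U-2 OS (SE 0.261, edgeR adjusted p = 0.00103) and -1.23 for A-431 over U-2 OS (SE 0.260, edgeR adjusted p = 0.00188). Each stayed uncalled in 9 of 11 fits that left out 1 library. DESeq2 called 1 MT-ND gene lower in A-431 over U-2 OS, 3 higher in A-431 over U-251MG and 4 lower in U-251MG over U-2 OS. The call of MT-ND4L over U-251MG held in 5 of 11 fits that left out 1 library. The background in cytoplasmic RNA was 65.2% of genes called in either direction for A-431 over U-2 OS, 60% for A-431 over U-251MG and 61.9% for U-251MG over U-2 OS, as against 65.6, 57.8 and 62.5% in total RNA. A-431 and U-251MG cytoplasmic libraries lay on flow cell B except libraries 19 and 20.

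NDUFA1 and NDUFA5 had the largest ratios of all members in U-251MG over U-2 OS. NDUFA1, an X-linked subunit of the proximal arm needed for assembly, measured 72.3, 68.5, 78.4 and 68.1 CPM in total RNA of U-251MG, against 20.8, 21.5, 24.1 and 22.7 CPM in U-2 OS. The A-431 libraries, at 41.8 to 43.4 CPM, lay between them without overlap. Its log2 ratio was 1.68 for U-251MG over U-2 OS (SE 0.0720, edgeR adjusted p = 5.232e-17) and 0.96 for A-431 over U-2 OS (SE 0.0720, edgeR adjusted p = 4.912e-12). NDUFA5 measured 78.5, 84.5, 83.4 and 96.5 CPM in U-251MG, against 23.5, 30.3, 26.5 and 30.7 CPM in U-2 OS, a log2 ratio of 1.62 (SE 0.120, edgeR adjusted p = 1.056e-09). In A-431 it ranged from 48.3 to 72.8 CPM, 1.08 above U-2 OS (SE 0.120, edgeR adjusted p = 2.278e-07).

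NDUFB5, NDUFA13 and NDUFS7 were the next highest in U-251MG over U-2 OS. NDUFB5 of the distal arm measured 124.9, 126.3, 125.1 and 135.9 CPM in total RNA of U-251MG, against 45.9, 54.9, 46.7 and 49.8 CPM in U-2 OS, a log2 ratio of 1.37 (SE 0.0713, edgeR adjusted p = 3.133e-15). The ratio was 1.25 for NDUFA13 (SE 0.0882, edgeR adjusted p = 1.555e-12) and 1.11 for NDUFS7 (SE 0.146, edgeR adjusted p = 5.472e-07). The other direction was led by NDUFA6, a quinone module subunit of the LYR family, at -0.92 (SE 0.0660, edgeR adjusted p = 2.243e-12), and by NDUFB11, an X-linked distal arm subunit, at -0.72 (SE 0.0824, edgeR adjusted p = 1.595e-08). NDUFB9, NDUFB4 and NDUFA9 followed at -0.40, -0.31 and -0.28, and the calls of NDUFB4 and NDUFA9 were each kept in 5 of 12 fits that left out 1 library. NDUFB4 had a log2 ratio of 0.009 with limma on log2(RPKM + 1).

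NDUFS6, NDUFA9 and NDUFS3 were lower and NDUFC1 was higher in A-431 than in at least 1 other line. NDUFS6, a zinc-binding subunit of the NADH module, measured 23.1, 29.1, 24.1 and 25.9 CPM in total RNA of A-431, against 54.7, 51.5, 54.4 and 53.4 CPM in U-2 OS, a log2 ratio of -1.05 (SE 0.0912, edgeR adjusted p = 9.227e-11). It was also lower than in U-251MG, at -0.91 (SE 0.0914, edgeR adjusted p = 1.583e-09). NDUFA9, at the joint of the membrane and matrix arms, measured 46.9, 52.3, 46.8 and 52.3 CPM in A-431, against 105.4, 94.3, 93.4 and 107.2 CPM in U-2 OS, a log2 ratio of -0.99 (SE 0.0689, edgeR adjusted p = 9.722e-13). NDUFS3 was lower than in U-251MG, at -0.95 (SE 0.0870, edgeR adjusted p = 2.877e-10). NDUFC1 of the proximal arm went the other way, at 30.5, 31.1, 28.2 and 31.4 CPM in A-431, against 13.2, 15.7, 15.1 and 15.5 CPM in U-2 OS, a log2 ratio of 1.05 (SE 0.0812, edgeR adjusted p = 8.899e-12), and 0.77 over U-251MG (SE 0.0803, edgeR adjusted p = 3.618e-09).

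The remaining named members filled in the A-431 comparisons. Over U-2 OS, NDUFA13 and NDUFS7 were higher at 0.93 and 0.87, and NDUFC2, NDUFV2 and NDUFA6 were lower at -0.64, -0.59 and -0.53. NDUFV2 carries an iron-sulfur cluster of the NADH module. Over U-251MG, NDUFV1, the core subunit that binds NADH and the flavin, was higher at 0.58 (SE 0.0911, edgeR adjusted p = 3.311e-06), as were NDUFA6 at 0.39, NDUFB11 at 0.34 and NDUFB4 at 0.29. NDUFV2, NDUFS5 and NDUFA3 were lower at -0.86, -0.83 and -0.77. The calls of NDUFB11 and NDUFB4 over U-251MG were each lost in 11 of the 12 fits that left out 1 library.

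Sorted by role, the nuclear calls did not fall on 1 part of the complex. In U-251MG over U-2 OS, 3 of the 6 nuclear core subunits were higher and 0 lower, 4 of the 5 accessory subunits of the NADH module were higher and 0 lower, 6 of the 9 proximal arm subunits were higher and 0 lower, and 5 of the 11 distal arm subunits were higher and 3 lower. Of the 3 accessory subunits of the quinone module 1 was higher and 2 were lower, and the acyl carrier protein NDUFAB1 was higher. Among these accessory subunits of the quinone module NDUFA5 was higher and NDUFA6 and NDUFA9 were lower. NDUFS7, a core subunit of the same module, was higher at 1.11. Of all genes tested in this comparison, 28.3% were called higher and 34.2% lower. Pairs of lines were called 3 of 3 times for 10 nuclear members, 2 times for 20, 1 time for 2 and never for 3. The single pairs called 65.6, 57.8 and 62.5% of all genes. Genes called in several pairs were not counted over all genes, so these counts are not read as a trait of complex I.

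**Figure D5:**
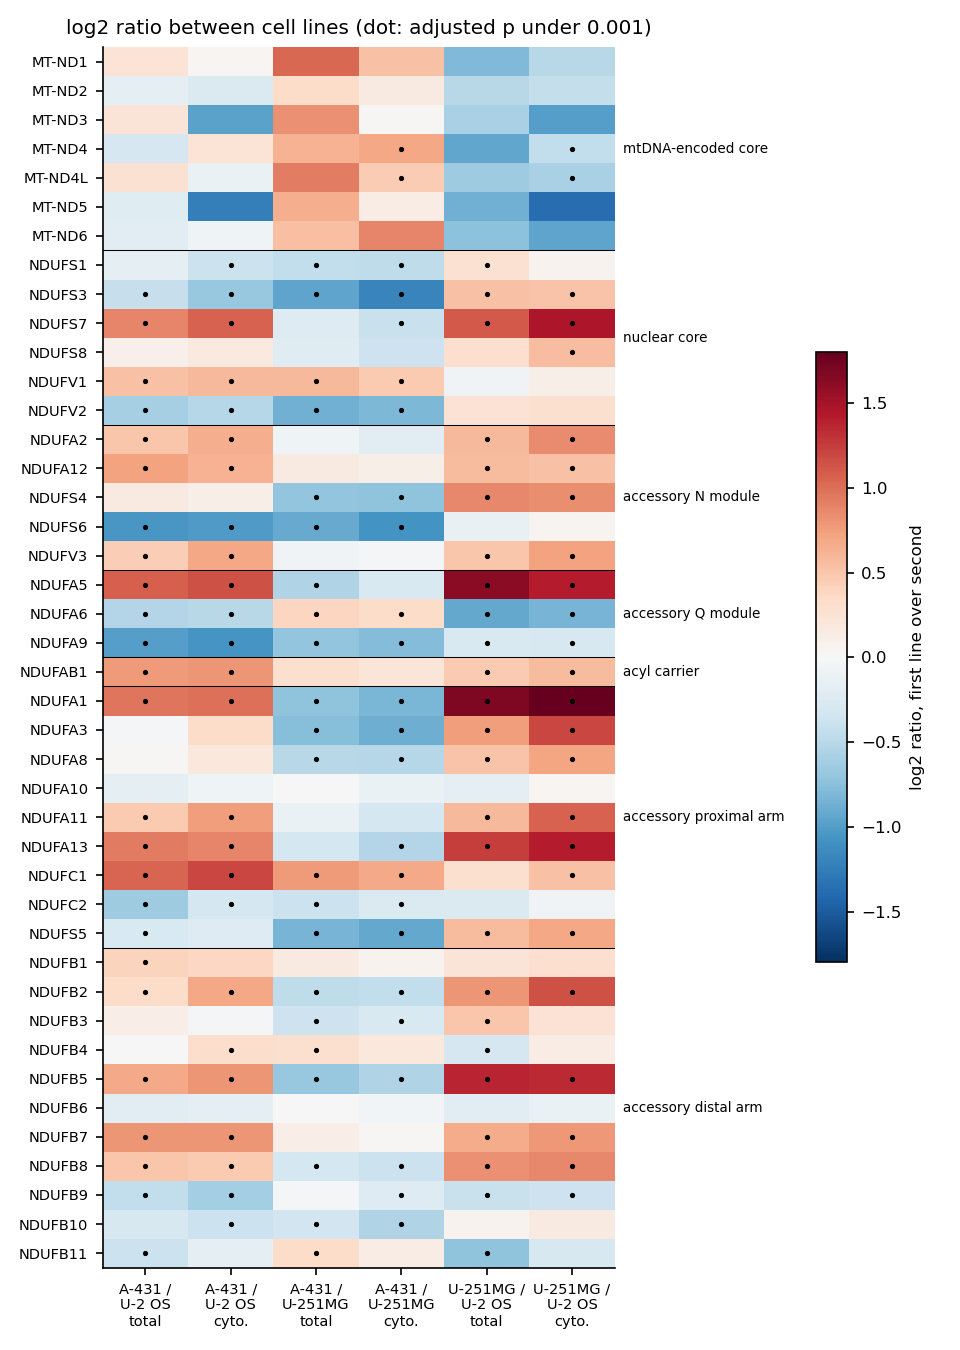
Log2 ratio between cell lines (colour scale, first line over second) for each complex I member (rows, grouped by role) in total and cytoplasmic RNA (columns), with a dot where the edgeR adjusted p was under 0.001. Most nuclear rows are above 0 for U-251MG over U-2 OS, led by NDUFA1 at 1.68 in total RNA, while all 7 MT-ND rows are below 0.

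The nuclear members were also compared in cytoplasmic RNA. The counts there were 16 higher and 9 lower for A-431 over U-2 OS, beside 31.1 and 34.1% of all genes tested. They were 3 and 19 for A-431 over U-251MG, beside 30 and 30.1%, and 20 and 3 for U-251MG over U-2 OS, beside 28.7 and 33.2%. NDUFA1 had a ratio of 1.81 for U-251MG over U-2 OS (SE 0.0805, edgeR adjusted p = 2.944e-14), NDUFS7 1.46 and NDUFA13 1.42. NDUFS3 was at -1.19 for A-431 over U-251MG (SE 0.0685, edgeR adjusted p = 1.773e-12) and -0.68 for A-431 over U-2 OS (SE 0.0735, edgeR adjusted p = 3.604e-08). NDUFC1 was at 1.20 for A-431 over U-2 OS (SE 0.0868, edgeR adjusted p = 7.222e-11).

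Whether the fraction ratio itself differed between lines was tested as an interaction of line and fraction. NDUFB4, a distal arm subunit, was the only member called at an adjusted p under 0.05, in U-251MG against U-2 OS, where 1.67% of all genes tested were called, 0.907% higher and 0.762% lower. It measured 36.9, 36.98, 38.3 and 33.3 CPM in total RNA of U-251MG, against 42.3, 47.3, 45.1 and 47.6 CPM in cytoplasmic RNA. In U-2 OS it measured 44.8, 49.3, 40.6 and 44.2 CPM in total RNA, against 45.7, 42.6 and 38.6 CPM in cytoplasmic RNA. In U-251MG every total RNA library was lower than every cytoplasmic library, and the U-2 OS fractions overlapped. The ratio was lower in U-251MG by a log2 difference of -0.41 (SE 0.0971, edgeR adjusted p = 0.02846). The call was lost without library 2, 8, 16, 18 or 20, at edgeR adjusted p of 0.05521 to 0.1613. A processed copy of the gene, NDUFB4P12, was itself counted at 23.96 CPM on average, so reads of NDUFB4 can be split between them.

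No member was called in the other 2 differences, where 2.12% of all genes (0.947% higher, 1.17% lower, A-431 against U-2 OS) and 0.16% (0.12% higher, 0.0401% lower, A-431 against U-251MG) were. At an unadjusted p under 0.05 there were 4 members higher and 4 lower in A-431 against U-2 OS and none in A-431 against U-251MG, beside 2916 and 1529 of all 19948 genes. DESeq2 called 1 higher and 1 lower in the first and 0 in the second. MT-ND5, opposite in direction in A-431 and U-2 OS, had a difference of 1.01 (SE 0.379, edgeR adjusted p = 0.2092), so its pattern is not shown to differ. MT-ND3 had a difference of 1.20 in the same comparison (SE 0.486, edgeR adjusted p = 0.2511).

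Reads of some members can also fall on copies elsewhere in the genome. The count tables hold 170 copies of MT-ND genes in the nuclear genome, which together took 31.6 to 96.1 CPM per library, led by MTND2P28 at 51.6 CPM. The 38 pseudogenes of nuclear members took 41.9 to 60.7 CPM. Reads that align equally well to several places were left out of the counts.

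Genes that build complex I or handle mitochondrial RNA were counted in the same way. Of 18 assembly factors, 1 was higher and 2 were lower in total RNA of A-431, 2 and 0 for U-2 OS, and 0 and 1 for U-251MG. Of 23 genes of mitochondrial transcription and RNA handling, the counts were 4 and 2, 1 and 3, and 1 and 2. Beside them stand 19.7, 8.36 and 12.9% of all genes called in either direction. FASTKD4, known to stabilise mitochondrial mRNAs, was lower in total RNA of all 3 lines, at -0.37 in A-431, -0.37 for U-2 OS and -0.56 for U-251MG. LRPPRC, which with SLIRP keeps mitochondrial mRNAs stable and polyadenylated, was higher in A-431 at 0.38, and SLIRP was lower in U-2 OS at -0.60. The GC content was 58.98% for FASTKD4, 41.56% for LRPPRC and 44.95% for SLIRP. The part of GC content in these ratios was not tested. Of 8 regulators of nuclear genes for mitochondrial proteins, 0 were higher and 1 was lower in A-431, 1 and 0 for U-2 OS, and 0 and 1 for U-251MG.

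Between lines in total RNA these lists were called more often. Of the assembly factors, 8 were higher and 4 lower in A-431 than in U-2 OS, 8 and 7 in A-431 over U-251MG, and 8 and 4 in U-251MG over U-2 OS. NDUFAF4, an assembly factor of the matrix arm, was at -1.86 for A-431 over U-251MG, and NDUFAF1 was at 1.59 for U-251MG over U-2 OS. Of the RNA handling genes, the counts were 8 and 7, 7 and 4, and 4 and 7. Of the regulators, they were 3 and 2, 2 and 3, and 2 and 1, and PPARGC1A, a coactivator of mitochondrial genes, was higher at 6.19 for A-431 over U-2 OS, 4.35 for A-431 over U-251MG and 1.84 for U-251MG over U-2 OS. These shares stand beside the 57.8 to 65.6% of all genes called between lines.

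Promoters of the nuclear members were searched for motifs of 2 of these regulators, because members were called between lines, in both directions. The window ran from 250 bases before to 50 bases after each start (RefSeq, GRCh38.p14), and 31 members had one. The NRF1 motif, spelled GCGCA, any base and GCGC, on either strand, was found in 6 of 31 members (19.4%) and in 6.28% of 27305 promoters. The ETS motif CCGGAAG, which GABPA binds, was found in 5 of 31 (16.1%) and in 10.7% of all. Each line below gives a 30-base window with the motif in capitals, 5′ to 3′ on the strand of the gene, so that a motif on the other strand reads as its reverse complement.
NDUFA1: ttccgtcgcttCTTCCGGagccgtacgtgg
NDUFA13: tccgcccgggaCCGGAAGtgtgggatactg
NDUFB7: gcctaaatgacCCGGAAGctgtgtctgact
NDUFA9: ttcttggttaGCGCTTGCGCagacaggcga
They lie at chrX:119871774-119871803 (plus strand), chr19:19516204-19516233 (plus), chr19:14572072-14572101 (minus) and chr12:4649024-4649053 (plus). NDUFA1 and NDUFA13 were higher in U-251MG than in U-2 OS, NDUFA9 was lower, and NDUFB7 was called between the fractions. The windows shown are only some of the matches. NDUFA5, NDUFB5 and NDUFS7, also higher in U-251MG than in U-2 OS, were not among the members with a match. The motif match describes the letters of these windows and says nothing of binding.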

How the data were processed

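Poly(A)-selected RNA of 24 libraries was sequenced by the study, which mapped reads to hg19 and counted them per gene. Tools named in the submitters' processing notes include TopHat 1.1.4, SAMtools 0.1.8, HTSeq 0.4.6 and DESeq. The labels name Trizol and a paired-end protocol, whereas the study's methods describe a column kit and single reads. The authors deposited counts as whole reads per Ensembl gene for each library. The RPKM values deposited by the authors, scaled by transcript length and library size, were used only as an alternative, since their ratio to counts per kilobase ran from 0.41 to 70.5 over the members.

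Rows naming no gene (25.9 to 33.6% of the reads in a library) were left out. Counts were scaled by TMM and tested with edgeR 4.0.16 (quasi-likelihood, R 4.3.3) over all genes passing the low-count filter. Benjamini-Hochberg adjusted p under 0.001 was called, and under 0.05 for differences of fraction ratios. Fractions were compared within each cell line, and lines within each fraction. Alternatives used DESeq2 1.42.0, limma 3.58.1 on log2(RPKM + 1), and omitted libraries. The fits were tested on simulated data. Replicates shared the study's numbers, but the sources do not tie a number to a culture, and no block was used in the main fits. A block by these numbers, added later, called more members lower in A-431 and U-2 OS, as given below.

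Named were all MT-ND genes, for each comparison the 5 called nuclear members with the largest ratio in each direction, those called between the fractions in all 3 lines, and the extremes by level. Extremes by level are given per kilobase of counts and by the deposited RPKM. The members and lists were chosen with earlier results of these data known.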

Additional observations from a re-analysis of the deposited data

Results flagged for a closer look

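Libraries were compared within the groups of 4 libraries, and 6 of 160 groups of values held 1 library far from the rest by Dixon's test at the 95% level, which chance gives in about 1 in 20 groups. Library 11 of A-431 total RNA had 7828 CPM of MT-ND4, against 4224 to 4794 CPM in the other libraries, and 1130 CPM of MT-ND6, against 598.0 to 655.8 CPM. Library 5 of U-251MG total RNA had 1981 CPM of MT-ND5, against 940.8 to 1114 CPM. Libraries 5 and 11 were both sequenced in lane 5 of flow cell A, and the part of that lane was not tested. Among the nuclear members, NDUFC2 was low in library 3 of U-2 OS total RNA, at 81.5 CPM against 90.4 to 91.6 CPM. NDUFB5 was high in library 8 of U-251MG total RNA, at 135.9 CPM against 124.9 to 126.3 CPM. NDUFS7 was high in library 18 of U-251MG cytoplasmic RNA, at 35.6 CPM against 25.7 to 27.1 CPM. The fraction ratio of NDUFB4 differed between U-251MG and U-2 OS by -0.41 on the log2 scale (edgeR adjusted p = 0.02846).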

How the results depend on the processing

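Counts here are of all 42 members called in total over cytoplasmic RNA or between lines. The counts reported were 1 higher and 5 lower in A-431, 1 and 6 for U-2 OS, and 1 and 5 for U-251MG. Where a value moved, the cause was not tested. At an adjusted p under 0.05, members called were 3 higher and 17 lower in A-431, 3 and 14 for U-2 OS, and 4 and 20 for U-251MG. That threshold gave 10 higher in A-431 over U-251MG and 13 lower in U-251MG over U-2 OS in total RNA, and 8 and 8 in cytoplasmic RNA. With DESeq2, 13 were lower in A-431, 3 higher and 10 lower in U-251MG, and 8 lower in U-251MG over U-2 OS cytoplasmic RNA. DESeq2 called 1 higher and 1 lower difference of the fraction ratio in A-431 against U-2 OS, and 2 and 2 in U-251MG against U-2 OS. With no filter on low counts, 2 were higher and 11 lower in A-431, 2 higher in U-2 OS, 9 lower in U-251MG and 3 lower in the U-251MG against U-2 OS difference.

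With limma on log2(RPKM + 1), 0 were higher and 1 lower in A-431, 0 and 0 for U-2 OS, and 0 and 0 for U-251MG. The median log2 ratio of the MT-ND genes was then -0.15 for U-2 OS, and that of the nuclear members -0.16 for U-251MG. In total RNA limma gave 2 higher in A-431 over U-2 OS (nuclear median 0.084), 1 and 9 in A-431 over U-251MG, and 8 and 3 in U-251MG over U-2 OS (nuclear median 0.38). In cytoplasmic RNA it gave 6 higher, 1 and 12, and 12 and 3 (nuclear median 0.43). NDUFB4 changed sign in U-251MG over U-2 OS total RNA, to 0.009 (limma adjusted p = 0.9754). The summed nuclear members had a log2 ratio of -0.014 in U-2 OS from RPKM.

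With flow cell A libraries alone, 0 were higher and 2 lower in U-2 OS, and for U-251MG there were 0 and 1, with a nuclear median of -0.12. One model over all groups called 0 and 1 for U-2 OS, and 3 and 14 for U-251MG. Fits with only the groups compared gave 3 lower in U-251MG over U-2 OS total RNA and 9 in cytoplasmic RNA. At an adjusted p under 0.001 no difference of the fraction ratio was called (0 lower in U-251MG against U-2 OS). Chosen after the data were seen, leaving out libraries 5 and 11 gave 3 lower in U-251MG, 9 lower in U-251MG over U-2 OS total RNA, 1 lower in the A-431 against U-2 OS difference, and 1 higher and 3 lower in the U-251MG against U-2 OS difference. A replicate block by the study's numbers, also added later, gave 12 lower in A-431, and 3 higher and 12 lower in U-2 OS. Correlations of same-numbered libraries ran from 0.02 to 0.45 in A-431, 0.05 to 0.39 for U-2 OS and -0.63 to 0.47 for U-251MG. They were thus positive in every A-431 and U-2 OS pair. The sources do not tie the numbers to cultures, and the main fits did not take them as pairs.

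Leaving out 1 library at a time gave 0 to 1 higher and 3 to 7 lower in A-431, 1 to 3 and 2 to 10 for U-2 OS, and 0 to 1 and 1 to 4 for U-251MG. In total RNA the nuclear median ran from 0.094 to 0.17 in A-431 over U-2 OS and from -0.38 to -0.28 in A-431 over U-251MG (3 to 4 higher), and 3 to 5 were lower in U-251MG over U-2 OS. In cytoplasmic RNA it ran from 0.23 to 0.33, -0.41 to -0.28 and 0.49 to 0.59. Differences of the fraction ratio numbered 0 to 2 lower in A-431 against U-2 OS, and 0 to 1 higher and 0 to 3 lower in U-251MG against U-2 OS, where NDUFB4 stayed between -0.46 and -0.34 and was called in 18 of 23 fits.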
